A study of Mus musculus with 10 samples.

Results

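The Reg genes encode small secreted C-type lectins of the regenerating islet-derived family. The 5 members described here, *Reg1*, *Reg3a*, *Reg3b*, *Reg3g* and *Reg4*, were the rows of the deposited gene table that carried these symbols, out of 47069 genes with counts, and all 5 passed the filter on low counts. RNA-seq was performed on 10 libraries of mouse intestinal organoids, 2 in each of 5 groups, all from C57BL/6 mice and all after 50 days of culture in Matrigel with Noggin, EGF and R-spondin-1 (NER medium). Per the study's methods, the mice carried *Ppp2r1a* flox/flox and the transgene *Lgr5-EGFP-CreERT2*, so the controls carried the floxed gene and the Cre transgene too. The groups were saline (control), the carcinogen DMBA, labelled Long (DMBA), tamoxifen labelled Dosage-sensitive TAM (short) (TAM short) or Dosage-sensitive TAM (Long) (TAM long), and DMBA with tamoxifen (DMBA+TAM). Tamoxifen activates the Cre, which the *Lgr5* promoter drives in crypt stem cells, and the Cre removes part of *Ppp2r1a*, the scaffold subunit of the phosphatase PP2A. Only *Lgr5*-expressing cells can recombine, so organoids treated with tamoxifen can hold cells with and without the gene. The titles of the TAM short and TAM long libraries also hold the letters DSS. The labels do not say what dosage-sensitive, DSS, short and Long mean, so whether these libraries differ from control by more than tamoxifen cannot be told, nor do they say whether the 2 libraries of a group came from separate mice or cultures, so p-values measure only the spread between these libraries.

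In the gut epithelium, *Reg3b* and *Reg3g* are made by enterocytes and Paneth cells and are released into the mucus, where they bind peptidoglycan of Gram-positive bacteria (*Reg3g*) or the lipid A of Gram-negative bacteria (*Reg3b*). Microbial signals through MyD88, and the cytokine IL-22 through the receptor *Il22ra1* and STAT3, are known to induce them. *Reg1* is best known from the regenerating pancreas and is also made in the small intestine, and *Reg4* marks deep crypt secretory cells of the colon and enteroendocrine cells.

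Of these genes 4 lie together on chromosome 6 of GRCm38, in the order *Reg3b* (78370657 to 78373466, plus strand), *Reg3a* (78380709 to 78383827, plus strand), *Reg1* (78422711 to 78428667, plus strand) and *Reg3g* (78466269 to 78468872, minus strand). Between them lie *Reg3d* and *Reg2*, the other Reg genes of the table. *Reg4* lies apart, on the plus strand of chromosome 3 from 98222156 to 98236748. The 150 bases before the RefSeq transcript start on GRCm38.p6 are shown for *Reg3b* and *Reg3g*, called higher in TAM short than in control, and for *Reg4* and *Reg1*, which were not called there. Capitals mark the letters of a TATA box, TATAAA, and, in *Reg3b*, the letters of a STAT element, TTCNNNGAA. The window of *Reg3a*, also not called in TAM short against control, held neither and is not shown. Those of *Reg1* and *Reg3b* lie inside the spans given above, which are those of the deposited gene table and not of RefSeq.

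Reg3b (chr6:78370735-78370884, plus strand): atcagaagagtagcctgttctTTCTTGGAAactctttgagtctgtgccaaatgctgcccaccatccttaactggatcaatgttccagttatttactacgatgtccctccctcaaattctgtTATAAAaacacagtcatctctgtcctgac
Reg3g (chr6:78468875-78469024, minus strand): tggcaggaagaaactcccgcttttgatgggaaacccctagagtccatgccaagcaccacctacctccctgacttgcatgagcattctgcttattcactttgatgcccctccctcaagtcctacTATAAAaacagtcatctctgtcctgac
Reg1 (chr6:78425833-78425982, plus strand): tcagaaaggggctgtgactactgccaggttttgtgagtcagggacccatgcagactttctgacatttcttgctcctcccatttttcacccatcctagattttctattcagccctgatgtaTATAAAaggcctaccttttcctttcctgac
Reg4 (chr3:98222006-98222155, plus strand): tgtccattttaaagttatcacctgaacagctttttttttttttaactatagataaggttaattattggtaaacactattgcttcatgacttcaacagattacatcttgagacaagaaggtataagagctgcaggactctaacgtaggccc

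The windows of *Reg3b* and *Reg3g* were 69.5% identical (107 of 154 aligned columns) and shared a run of 20 bases that ends at the transcript start, acagtcatctctgtcctgac. All other pairs of members were between 40.2% and 54.8% identical. TATAAA stood 29 bases before the start in *Reg3b*, 27 in *Reg3g* and 30 in *Reg1*, on the given strand, against 7.57% of 32851 RefSeq promoter windows of the same length with TATAAA on either strand. TTCNNNGAA, which reads the same on both strands, occurred in *Reg3b* alone among the members, as TTCTTGGAA starting 129 bases before the start, against 4.09% of all windows. The letters AGATAA, which GATA factors bind, were found in *Reg4* alone, 101 bases before the start, against 5.65% of all windows. A match of letters is a description of the window and not of binding. The coding transcripts of *Reg3b* and *Reg3g* were 68.6% identical, with a longest shared run of 35 bases. No stretch of 50 bases in the transcripts of *Reg3a*, *Reg3b*, *Reg3g* or *Reg4* occurred in another gene, whereas 32 of 876 stretches of *Reg1* (3.65%) did, none of them in a Reg gene.

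The libraries of control, DMBA, TAM short and TAM long held 8828247 to 10923673 counts on genes, and those of DMBA+TAM 1592366 and 1915270. At these totals, 3 counts, taken as the lowest level told from 0, stood for 0.258 to 0.378 normalized CPM (counts scaled to the TMM-adjusted library total) in the first 4 groups and for 1.32 and 1.58 in DMBA+TAM. *Ppp2r1a* had 122.7 to 129.1 normalized CPM in control, 166.9 and 152.4 in DMBA, and 129.1 to 168.5 in the libraries with tamoxifen. Its counts are sums over all exons, so the loss of the floxed exons could not be seen in them. Control and TAM short have an S in their titles, and the groups labelled Long, DMBA and TAM long, an L. The titles of DMBA+TAM hold Lgr5 in place of an S or L code, so whether that group differs by more than treatment cannot be told. The summed level of 10 small intestine markers was 19498 to 37303 normalized CPM in the S libraries and 298.9 to 956.9 in the L libraries, and that of 7 colon markers was 489.8 to 849.6 and 3820 to 13504. In comparisons across these letters, the treatment and what short and Long stand for cannot be told apart. DMBA+TAM libraries stood apart in tissue markers: the 8 epithelial markers summed to 21.98 and 26.87 normalized CPM against 12061 to 19111 in the other groups (*Epcam* had 3 counts in each library), and the 8 fibroblast markers to 31384 and 32378 against 638.2 to 2047. Immune markers summed to 4172 and 4235 there (others 120.6 to 320.1), neutrophil markers to 89.7 and 112.2 (others 0.785 to 2.26) and endothelial markers to 486.7 and 488.3 (others 53.4 to 96.1). Smooth muscle markers were highest in DMBA and TAM long, at 6122 to 11086 against 729.1 to 2011. In bulk RNA, fewer cells of a type and less RNA per cell cannot be told apart.

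Across the 10 libraries the 5 genes together took from 0.00324% to 4.17% of all counts. They took 0.690% and 0.435% in control, 3.51% and 4.17% in TAM short, 0.15% and 0.0502% in TAM long, 0.0333% and 0.393% in DMBA, and 0.00452% and 0.00324% in DMBA+TAM. Exact (Clopper-Pearson) 95% intervals, which cover counting error only, ran from 3.50% to 3.52% in TAM short replicate 1 and from 0.00248% to 0.00415% in DMBA+TAM replicate 2. Each of the TAM short libraries was above every other library, and each DMBA+TAM library was below every other one.

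**Figure D1:**
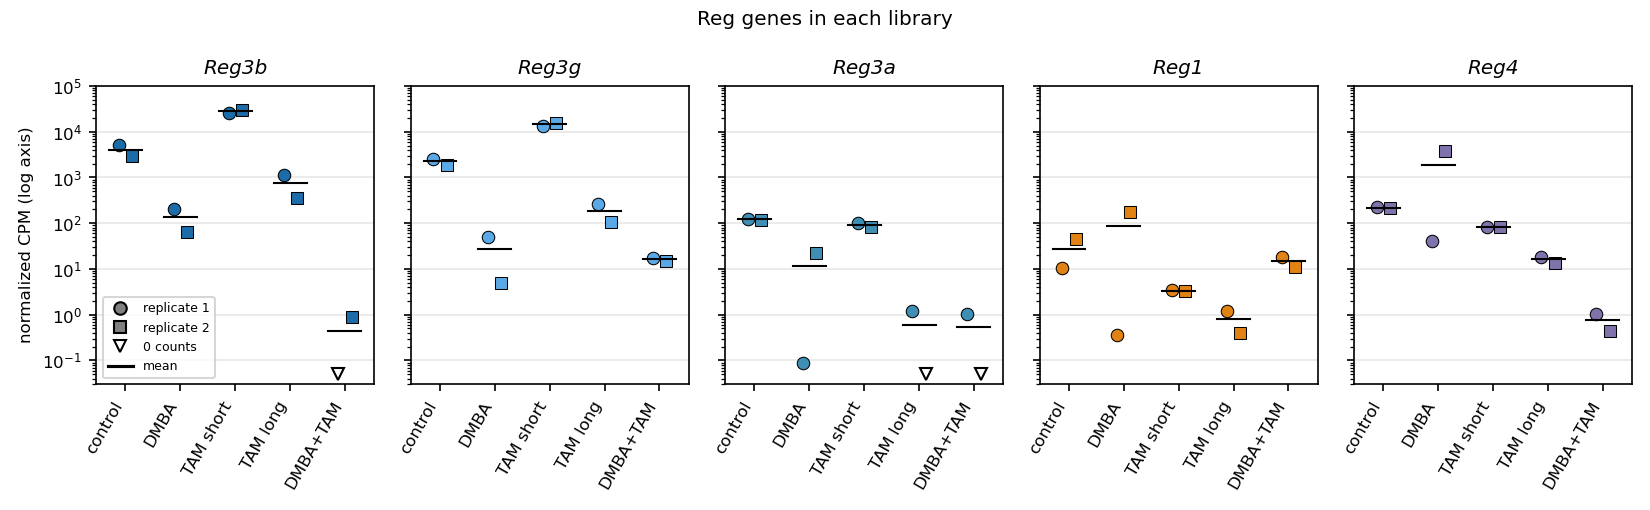
Normalized CPM (log axis) of each Reg gene in each of the 10 libraries by group. Circles are replicate 1, squares replicate 2, black lines group means and open triangles libraries with 0 counts. *Reg3b* and *Reg3g* were highest in TAM short, and the 2 DMBA libraries lie far apart for *Reg3a*, *Reg1* and *Reg4*.

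*Reg3b*, the lectin with the most counts in the family, gave 44897 and 24737 counts in control, 226228 and 242018 in TAM short, 13053 and 3649 in TAM long, 2319 and 580 in DMBA, and 0 and 2 in DMBA+TAM. As levels these were 5066 and 2973 normalized CPM in control, 25507 and 30476 in TAM short, 1124 and 357.9 in TAM long, and 206.7 and 65.01 in DMBA. No 2 groups overlapped, and the order ran from TAM short through control, TAM long and DMBA to DMBA+TAM. By FPKM, which scales counts by length and library total, *Reg3b* had rank 1 of all genes in both TAM short libraries. Its ranks were 5 and 12 in control, 30 and 161 in TAM long, and 276 and 999 in DMBA.

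*Reg3g*, its partner against Gram-positive bacteria, followed the same order over the first 4 groups. Its counts were 22959 and 15661 in control, 117418 and 124557 in TAM short, 3085 and 1091 in TAM long, 561 and 44 in DMBA, and 33 and 34 in DMBA+TAM. In normalized CPM the control libraries had 2591 and 1882, TAM short 13239 and 15685, TAM long 265.5 and 107, DMBA 50.0 and 4.93, and DMBA+TAM 17.4 and 15.0. The DMBA+TAM values lay between those of the DMBA libraries, so these groups overlapped. Whereas *Reg3b* was at or under 3 counts in DMBA+TAM, *Reg3g* kept 33 and 34 counts there.

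*Reg3a*, another lectin of the same subfamily, was highest in control rather than in TAM short. Counts were 1122 and 959 in control, 897 and 670 in TAM short, 14 and 0 in TAM long, 1 and 203 in DMBA, and 2 and 0 in DMBA+TAM. The control and TAM short libraries had 84.4 to 126.6 normalized CPM, and the other libraries at most 22.8, in DMBA replicate 2.

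*Reg1*, the member known from the pancreas, was highest in one DMBA library and lowest in the other. Its counts were 92 and 371 in control, 30 and 26 in TAM short, 14 and 4 in TAM long, 4 and 1555 in DMBA, and 35 and 25 in DMBA+TAM. In normalized CPM it had 10.4 and 44.6 in control, 3.38 and 3.27 in TAM short, 1.21 and 0.392 in TAM long, 0.357 and 174.3 in DMBA, and 18.44 and 10.99 in DMBA+TAM. DMBA+TAM lay within the range of control, and TAM short and TAM long lay below it.

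*Reg4*, the marker of deep crypt secretory and enteroendocrine cells, gave 1955 and 1786 counts in control, 744 and 656 in TAM short, 214 and 141 in TAM long, 451 and 33582 in DMBA, and 2 and 1 in DMBA+TAM. Its levels were 220.6 and 214.7 normalized CPM in control, 83.9 and 82.6 in TAM short, 18.4 and 13.8 in TAM long, and 40.2 and 3764 in DMBA. Replicates of control, TAM short and TAM long lay within 1.33 times of each other, and those of DMBA 93.7 times apart.

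The share of each member was taken from FPKM, since levels of different genes can be compared only per length. *Reg3b* made up 74.5% to 82.2% of the summed FPKM of the 5 genes in control and TAM short, 87.2% and 90.2% in TAM long and 82.4% in DMBA replicate 1. In DMBA replicate 2 it made up 2.72%, and *Reg4* 91.2%. In DMBA+TAM, where the 5 genes gave only 72 and 62 counts, *Reg1* made up 61.1% and 52.2% and *Reg3g* 32.7% and 40.4%. The ratio of *Reg3b* to *Reg3g* FPKM was 3.82 to 4.73 in control and TAM short, 10.2 and 8.09 in TAM long, and 31.9 in DMBA replicate 2.

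These shares depend on the length behind FPKM. The deposited FPKM used 591 bp for *Reg3b* and 1430 bp for *Reg3g*, the means over all listed transcripts, among them a 2089 bp *Reg3g* transcript with a retained intron. Per kilobase of the longest protein-coding transcript, 783 bp and 771 bp, *Reg3b* held 57.2% to 65.5% and *Reg3g* 32.9% to 36.8% of the family in control and TAM short. The *Reg3b* to *Reg3g* ratio per coding kilobase was 1.56 to 1.93 in control and TAM short, 4.17 and 3.29 in TAM long, 4.07 in DMBA replicate 1 and 13.0 in DMBA replicate 2. A fixed length cannot change how the ratio moved between libraries, and on both scales it was higher in the L libraries than in the S libraries.

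**Figure D2:**
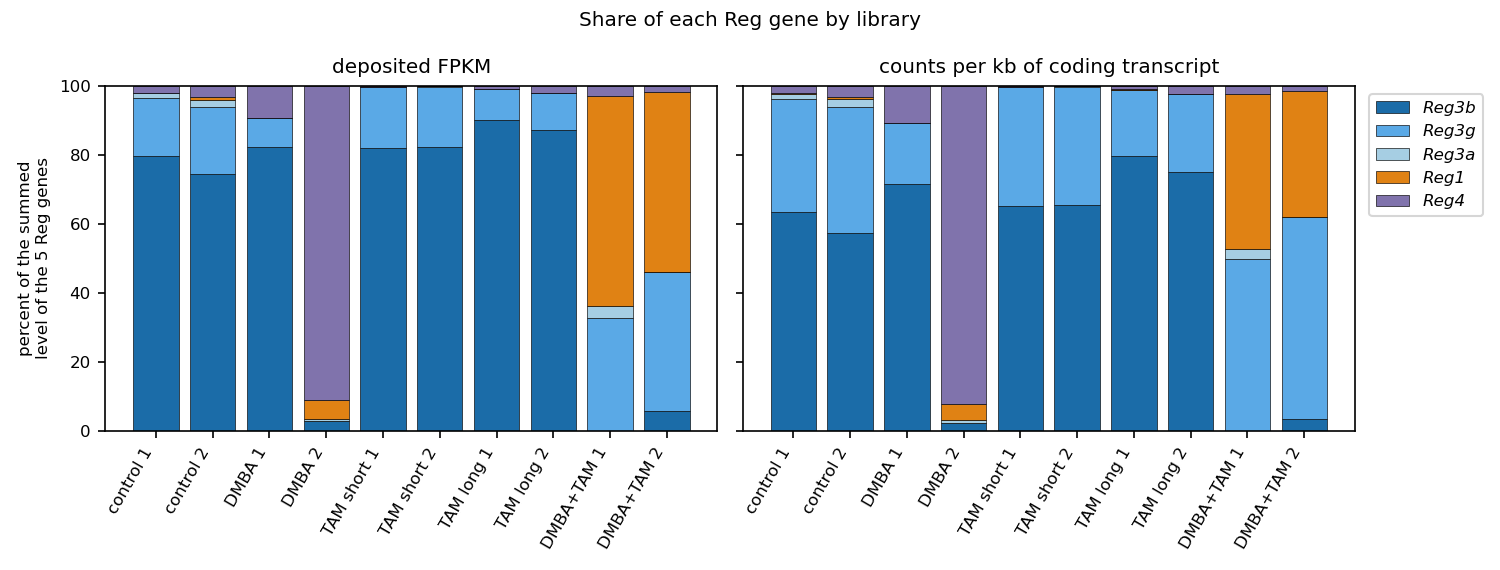
Percent of the summed level of the 5 Reg genes that each gene held in each library, by deposited FPKM (left) and by counts per kilobase of the longest coding transcript (right). *Reg3b* and *Reg3g* filled most of every bar of control, TAM short and TAM long, *Reg4* filled 91.2% of DMBA replicate 2 by FPKM, and the DMBA+TAM bars rest on 72 and 62 counts.

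The first comparison, within the S libraries, was of the organoids labelled Dosage-sensitive TAM (short) with saline controls. In TAM short against control, 2 of the 5 genes rose, *Reg3b* and *Reg3g*, 0 fell, and of all 16179 genes tested 14.3% were called, 6.52% higher and 7.8% lower. Mean *Reg3b* was 27992 ± 3514 normalized CPM (SD, n = 2) in TAM short and 4020 ± 1480 in control, and mean *Reg3g* 14462 ± 1730 and 2236 ± 501. The log2 fold change (log2FC) was 2.80 for *Reg3b* (standard error 0.62, adjusted p = 0.0163 by the quasi-likelihood test of edgeR, Benjamini-Hochberg method) and 2.69 for *Reg3g* (standard error 0.77, adjusted p = 0.0451). Both were higher in 2 of 2 libraries, but with any 1 of the 4 libraries left out neither kept its call, the lone library being assumed to vary like those of the other groups. *Reg3a* had a log2FC of -0.38 (adjusted p = 0.826), *Reg4* of -1.39 (adjusted p = 0.505) and *Reg1* of -3.04 (adjusted p = 0.266). For *Reg1*, *Reg3a* and *Reg4* the groups did not overlap, TAM short being lower, but how many of all genes did not overlap was not counted. With only these 4 libraries in the fit all 3 were called lower, where 31% of 13928 genes were called, 2228 higher and 2089 lower. Over the 5 genes the median was -0.38, and over all genes tested -0.04.

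Epithelial markers summed to 18092 and 19111 normalized CPM in TAM short and 15686 and 16105 in control, and the 8 immune markers to 320.1 and 314.6 against 120.6 and 195.3. Small intestine markers summed to 21603 and 19498 in TAM short and 34820 and 37303 in control, and colon markers to 699.5 and 849.6 against 489.8 and 521.5, with no overlap in either list. The colon sum includes *Saa1*, which IL-22 also induces, at 208.2 ± 82.4 normalized CPM in TAM short against 1.11 ± 0.033 in control. Much of the colon gap was therefore *Saa1*. *Ifng* and *Il22*, cytokines of lymphocytes, were singled out after their values were seen. *Ifng* had 23 and 27 counts in TAM short, 0 and 1 in control and at most 3 in any other library, and *Il22*, which did not pass the filter on low counts, had 11 and 4 in TAM short, 0 and 1 in control, 5 and 0 in TAM long, where *Reg3b* and *Reg3g* were lower than in control, and 0 in every other library. The part of these cells, or of gut segment, in the rise of *Reg3b* and *Reg3g* was not tested.

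**Figure D3:**
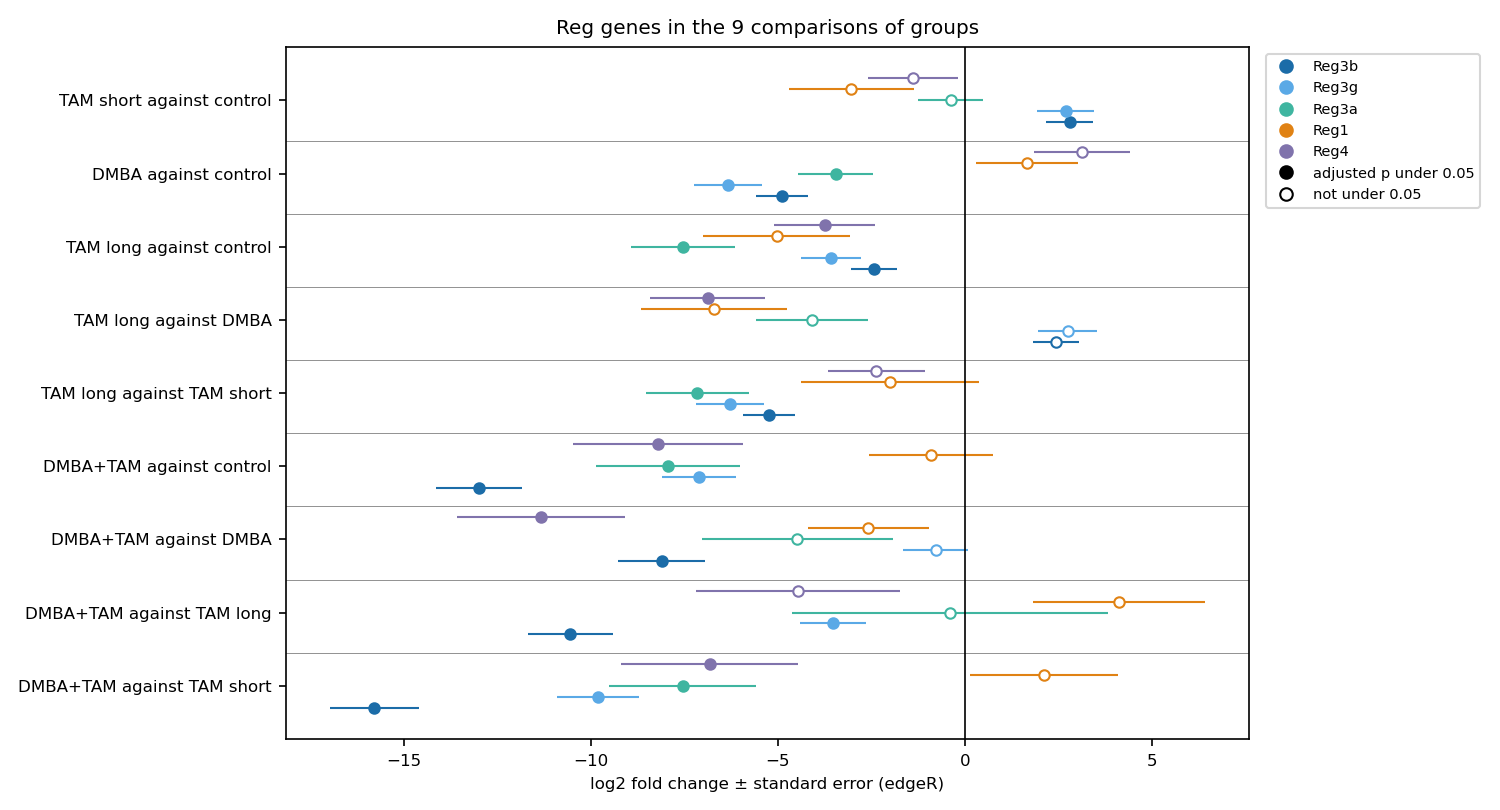
Log2 fold changes ± standard errors from edgeR for the 5 Reg genes in 9 comparisons of groups. Filled points have an adjusted p under 0.05. In comparisons with DMBA+TAM, values of *Reg3b*, *Reg3a* and *Reg4* rest on 2 counts or fewer in each DMBA+TAM library. *Reg3b* and *Reg3g* lay to the right of 0 in TAM short against control, and the called genes of all other comparisons shown lay to the left.

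Between the groups with an L and an S in their titles, the antimicrobial Reg3 genes were lower in the L libraries. Against control, 3 of the 5 genes were lower in DMBA, *Reg3a*, *Reg3b* and *Reg3g*, and 0 were higher, where 47.8% of all genes tested were called, 24.5% higher and 23.3% lower. Mean *Reg3b* was 135.8 ± 100 normalized CPM in DMBA, a log2FC of -4.89 (standard error 0.69, adjusted p = 0.00034). Mean *Reg3g* was 27.5 ± 31.9, a log2FC of -6.34 (standard error 0.92, adjusted p = 0.000407). *Reg3a* had a log2FC of -3.45 (standard error 1.00, adjusted p = 0.0179), which lost its call in 4 of 9 other fits, DESeq2 among them, and without either control library. Its DMBA counts were 1 and 203, and it was called without either library, at -2.43 without replicate 1 (adjusted p = 0.00128). Mean control was 120.9 ± 8.02 normalized CPM. DMBA replicate 1, with 1 count, lay under the level of 3 counts there, 0.267 normalized CPM, so no exact fold is given. The values of *Reg1* (1.66, adjusted p = 0.341) and *Reg4* (3.13, adjusted p = 0.0691) were not called. The median of the 5 genes was -3.45, against 0.07 over all genes.

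In TAM long against control, 4 of the 5 genes were lower, 0 were higher, and 46% of all genes were called, 23.2% higher and 22.8% lower. *Reg3b* fell by 2.44 on the log2 scale (standard error 0.62, adjusted p = 0.00942), *Reg3g* by 3.59 (standard error 0.80, adjusted p = 0.00512), *Reg3a* by 7.54 (standard error 1.39, adjusted p = 0.00175) and *Reg4* by 3.75 (standard error 1.35, adjusted p = 0.0445). The size of the *Reg3a* fall rested on 14 and 0 counts in TAM long, and against replicate 2 alone, at 0, control was at least 411-fold higher and TAM short at least 315.2-fold higher. Without TAM long replicate 2, *Reg3a* alone kept its call, and without control replicate 1 *Reg3a* and *Reg3g* did. *Reg4* lost its call with any 1 of the 4 libraries left out and when scaled by library size only. *Reg1* had a log2FC of -5.04 and was not called (adjusted p = 0.0605). It was called lower by DESeq2 (-5.12, adjusted p = 0.0177), by edgeR with only the groups compared (-5.03, adjusted p = 0.00314) and by edgeR without the filter on low counts. The last fit also called *Reg1* in DMBA against control (adjusted p = 7.78e-16), with DMBA counts of 4 and 1555, so its calls carry little weight. The median of the 5 genes was -3.75, against 0.05 over all genes.

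TAM long lay below TAM short for the same Reg3 genes. *Reg3a*, *Reg3b* and *Reg3g* were lower and 0 of the 5 genes higher, where 42.2% of all genes were called, 22% higher and 20.3% lower. The values of log2FC were -7.15 (adjusted p = 0.00273), -5.24 (adjusted p = 0.000336) and -6.28 (adjusted p = 0.000547). All 3 calls held without each library in turn. *Reg4* (-2.37, adjusted p = 0.167) and *Reg1* (-2.001, adjusted p = 0.529) were not called, although their libraries did not overlap. The median of the 5 genes was -5.24, against 0.05 over all genes. Added after the data were seen, TAM short against DMBA called *Reg3b* (7.69, adjusted p = 5.82e-05), *Reg3g* (9.03, adjusted p = 0.00011) and *Reg3a* (3.07, adjusted p = 0.0295) higher, where 46.2% of all genes were called, 21.8% higher and 24.5% lower. *Reg3b* and *Reg3g* kept their calls under every alternative run. *Reg3a* kept its call in 5 of 9 other fits, DESeq2 not among them, and lost it without either TAM short library. *Reg1* (-4.70, adjusted p = 0.0431) and *Reg4* (-4.51, adjusted p = 0.0222) were called lower there, although their libraries overlapped, and both calls were lost without either TAM short library. Without DMBA replicate 2 both signs turned, and *Reg4* was called higher in TAM short (1.06, adjusted p = 0.000898) and *Reg1* had 3.18 (adjusted p = 0.0791).

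Small intestine markers moved with these differences. *Gata4*, a transcription factor of the proximal small intestine, had 144.1 ± 11.9 normalized CPM in control, 25.2 ± 16.5 in TAM short, 1.91 ± 1.32 in TAM long and 1.17 ± 1.496 in DMBA. *Lyz1*, the lysozyme of Paneth cells, had 7913 ± 1282 in control, 5300 ± 1144 in TAM short, 1.95 ± 0.439 in TAM long and 2.22 ± 1.62 in DMBA. The summed epithelial markers were 12061 to 13441 normalized CPM in DMBA and TAM long, against 15686 and 16105 in control. The part of gut segment in the lower Reg levels was not tested.

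Within the L libraries, *Reg4* alone was called lower in TAM long than in DMBA and 0 genes were called higher, where 2.7% of all genes were called, 1.24% higher and 1.46% lower. Its log2 fold change was -6.88 (standard error 1.54, adjusted p = 0.0493). This call was lost without either TAM long library, with library size scaling and with the replicate number as a block. Without DMBA replicate 2 *Reg4* kept its call, at -1.31 (adjusted p = 0.00547). *Reg3b* was higher in TAM long (740.7 ± 541 normalized CPM) than in DMBA with no overlap, a log2FC of 2.45 (standard error 0.62), and *Reg3g* had 2.75 (standard error 0.79), but neither passed (adjusted p = 0.0678 and 0.0968). Both passed with the replicate number as a block (2.45, adjusted p = 0.0239, and 2.93, adjusted p = 0.0475) and without DMBA replicate 1 (3.51, adjusted p = 0.0141, and 5.24, adjusted p = 0.000917), and DESeq2 called *Reg3g* (2.76, adjusted p = 0.0267). The test of whether the contrast of the TAM group with the other group differed between the S and L libraries gave -0.35 for *Reg3b* (standard error 0.83, adjusted p = 0.857) and 0.06 for *Reg3g* (standard error 1.02, adjusted p = 0.992). In that test 0 of the 5 genes were called by edgeR or by DESeq2, 1 of them (*Reg4*, -5.49, adjusted p = 0.111) had an unadjusted p under 0.05, and 5.71% of all genes were called, 2.93% higher and 2.78% lower. For *Reg3b* and *Reg3g* this test of the 2 contrasts against each other was not called. Without DMBA replicate 1 the values in this test were 2.55 for *Reg3g*, 0.71 for *Reg3b*, -4.66 for *Reg1*, -4.74 for *Reg3a* and -6.47 for *Reg4*.

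The 2 DMBA libraries differed from each other more than the 2 libraries of any other group. Their chi-square on raw counts was 67.1 per degree of freedom against 5.57 to 23.2 in the other groups. It grows with depth, so the value of DMBA+TAM, 6.29, cannot be set beside the others. From DMBA replicate 1 to replicate 2, *Reg1* went from 4 to 1555 counts, *Reg4* from 451 to 33582, *Reg3a* from 1 to 203, *Reg2* from 3 to 879 and *Reg3d* from 0 to 47. *Reg3b* and *Reg3g* went the other way, from 2319 to 580 and from 561 to 44. *Reg2*, a pancreatic member of the family, had at most 3 counts in each of the other 9 libraries, and *Reg3d* at most 13.

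Markers of exocrine pancreas moved with this split. Of 12 such markers, 11 were over 3 counts in DMBA replicate 2 and 1 was at 0, and they summed to 6034 normalized CPM, against 106.7 in DMBA replicate 1 and 12.3 to 93.8 in the other groups. *Prss2*, a trypsinogen, had 4517 counts there and at most 2 in any other library, and *Cela1*, an elastase, 4908 counts against 536 in DMBA replicate 1. The 15 secretory and enteroendocrine genes went both ways, 8 being higher in normalized CPM in replicate 2 and 7 in replicate 1. *Spink4*, a goblet cell protease inhibitor, had 762.9 normalized CPM in replicate 1 and 3351 in replicate 2, whereas the mucin *Muc2* had 13670 and 13096 and *Spdef*, a goblet cell transcription factor, 112.1 and 95.2. Of the antimicrobial and lectin genes, 13 of 16 were higher in replicate 2 and 2 in replicate 1, and *Mptx1*, a mucosal pentraxin, had 375.4 normalized CPM in replicate 1 and 13704 in replicate 2. The part of pancreatic or secretory cells in the *Reg1* and *Reg4* levels of DMBA replicate 2 was not tested. Without DMBA replicate 2, *Reg4* and *Reg1* were lower in DMBA than in control, with log2FC values of -2.45 (adjusted p = 7.96e-06) and -6.21 (adjusted p = 0.00171). Without DMBA replicate 1 they were higher, at 4.09 (adjusted p = 2.66e-07) and 2.64 (adjusted p = 0.00425). The falls of *Reg3b* and *Reg3g* against control held without either DMBA library.

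**Figure D4:**
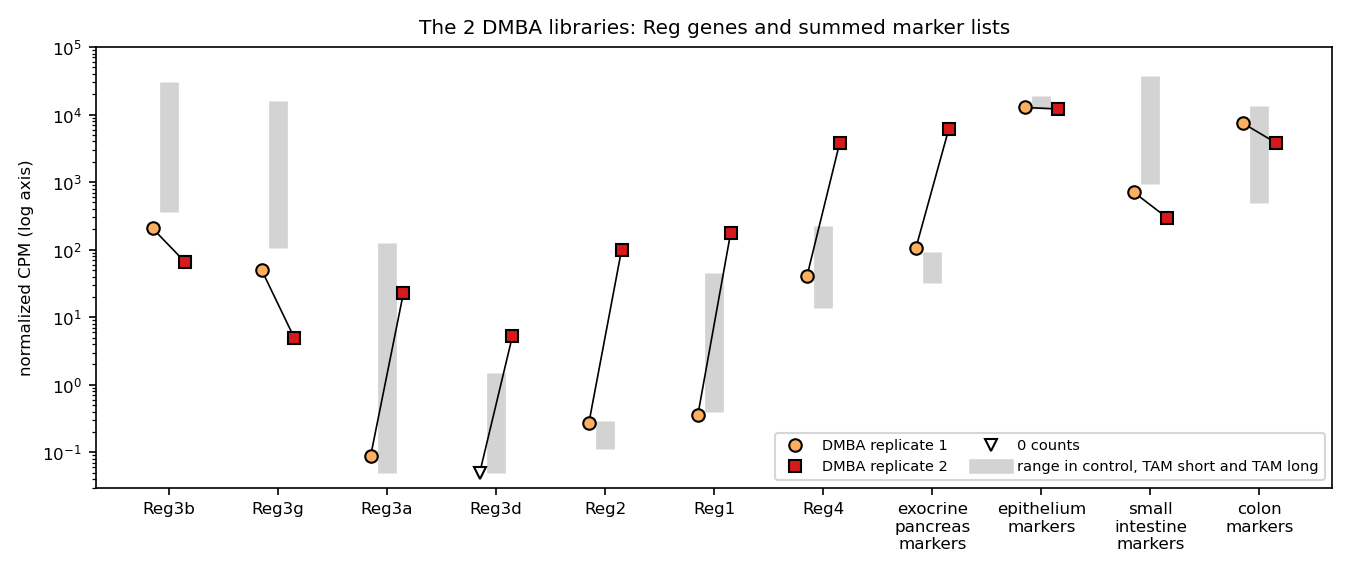
Normalized CPM (log axis) of 7 Reg genes and the summed level of 4 marker lists in DMBA replicate 1 (circles) and replicate 2 (squares), joined by a line. Grey bars span the libraries of control, TAM short and TAM long, and the open triangle marks 0 counts. *Reg1*, *Reg2*, *Reg3a*, *Reg3d* and *Reg4* were higher in replicate 2, as were the exocrine pancreas markers, and *Reg3b* and *Reg3g* were lower.

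In the DMBA+TAM libraries *Reg3b*, *Reg3a* and *Reg4* were at or under 3 counts each. Against control 4 of the 5 genes were lower and 0 higher, where 64.3% of all genes were called, 29% higher and 35.3% lower. Taking 3 counts in each DMBA+TAM library as the highest level that could be missed, *Reg3b* was lower by at least 2773-fold (adjusted p = 5.36e-06), *Reg4* at least 150.1-fold lower (adjusted p = 0.00982) and *Reg3a* at least 83.4-fold lower (adjusted p = 0.00476). *Reg4* lost its call without either DMBA+TAM library. *Reg3g* had 16.2 ± 1.72 normalized CPM against 2236 ± 501, a log2FC of -7.12 (standard error 0.99, adjusted p = 0.000134). *Reg1* had 14.7 ± 5.27 against 27.5 ± 24.2 in overlapping libraries and was not called (-0.92, standard error 1.66, adjusted p = 0.652). The median of the 5 genes was -7.12 with genes at 3 counts or fewer set to their bound, against -0.17 over all genes.

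Against TAM short the same 4 genes were lower and 0 higher, where 63.1% of all genes were called, 29.3% higher and 33.8% lower. *Reg3b* was at least 19309-fold lower (adjusted p = 1.88e-06), *Reg3a* at least 64.0-fold lower (adjusted p = 0.00714) and *Reg4* at least 57.4-fold lower (adjusted p = 0.0292). *Reg4* lost its call with any 1 of these 4 libraries left out, and *Reg3a* without DMBA+TAM replicate 2. *Reg3g* had a log2FC of -9.81 (standard error 1.09, adjusted p = 2.92e-05). *Reg1* was higher in 2 of 2 libraries but was not called (2.12, adjusted p = 0.373).

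Against TAM long, *Reg3b* was at least 511-fold lower (adjusted p = 3e-05; 775-fold against replicate 1 and 246.9-fold against replicate 2 alone) and *Reg3g* had a log2FC of -3.53 (standard error 0.88, adjusted p = 0.00695), and 0 genes were higher, where 55.2% of all genes were called, 25.3% higher and 29.9% lower. *Reg3g* lost its call without DMBA+TAM replicate 2. *Reg1* had a log2FC of 4.12 there (adjusted p = 0.157) and was higher in 2 of 2 libraries. *Reg4* was at least 11.1-fold lower but not called (adjusted p = 0.194), and *Reg3a*, with 14 and 0 counts in TAM long against 2 and 0, was not called (adjusted p = 0.949).

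Against DMBA, *Reg3b* was at least 93.7-fold lower (adjusted p = 0.000237) and *Reg4* at least 1312-fold lower (adjusted p = 0.0019) against the mean of both DMBA libraries, and 0 genes were higher, where 55.1% of all genes were called, 25.2% higher and 29.9% lower. Against DMBA replicate 1 alone the bound was 142.6-fold for *Reg3b* and 27.7-fold for *Reg4*, and against replicate 2 alone 44.8-fold for *Reg3b*. *Reg4* was still called lower without DMBA replicate 2 (adjusted p = 7.87e-07). *Reg3g* was -0.78 (standard error 0.87, adjusted p = 0.472), and its sign depended on the DMBA library kept: 1.70 without replicate 1 (adjusted p = 0.037) and -1.65 without replicate 2 (adjusted p = 0.0177). So did that of *Reg1* (-3.59 without replicate 1 and 5.27 without replicate 2). *Reg3a* was at least 15.7-fold lower than DMBA replicate 2 alone. Against DMBA replicate 1, with 1 count, *Reg3a* was under 3 counts on both sides, so its sign cannot be read. Neither *Reg1* nor *Reg3a* was called with all libraries.

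The test of whether DMBA changed the genes differently with and without tamoxifen, DMBA+TAM minus TAM long against DMBA minus control, called *Reg3b* (-5.67, standard error 1.501, adjusted p = 0.0111) and *Reg4* (-7.59, standard error 2.78, adjusted p = 0.0463) lower and 0 genes higher, where 48.2% of all genes were called, 21.6% higher and 26.5% lower. *Reg4* lost its call with 6 of the 8 libraries left out in turn, and *Reg3b* without DMBA+TAM replicate 1. Without DMBA replicate 2, the DMBA against control part of the *Reg4* value turned from 3.13 to -2.45, so its size rested on that library. *Reg3g* had 2.80, the opposite sign to *Reg3b*, and was not called (adjusted p = 0.0711), but 5 of 9 other fits called it higher, among them DESeq2 (2.89, adjusted p = 0.0453) and the fit with the replicate number as a block (3.26, adjusted p = 0.0208). Another of the 5 was the fit without the filter on low counts, whose calls carry little weight. With *Epcam* and the other epithelial markers near 0 in DMBA+TAM, loss of epithelial RNA moved with every one of these differences, and its part was not tested.

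Other genes of the Reg pathway were counted over lists, beside which 14.3% of all genes were called in TAM short, 46% in TAM long, 47.8% in DMBA and 64.3% in DMBA+TAM against control. *Extl3*, a proposed Reg receptor, had 130 ± 13.9 normalized CPM in DMBA+TAM, 55.4 ± 0.882 in DMBA, 37.4 ± 3.36 in TAM long, 25.1 ± 0.444 in control and 20.1 ± 1.65 in TAM short. Against control its log2 fold change was 2.37 in DMBA+TAM (standard error 0.13, adjusted p = 2.28e-07), 1.14 in DMBA (adjusted p = 7.96e-05), 0.58 in TAM long (adjusted p = 0.0047) and -0.32 in TAM short (adjusted p = 0.142). *Il22ra1*, the IL-22 receptor of epithelial cells, had 365 and 396 counts in control, 430 and 422 in TAM short, 228 and 303 in TAM long, 252 and 227 in DMBA, and 0 in both DMBA+TAM libraries. Of the 12 receptors, 1 (*Ifngr1*) was higher and 1 (*Il10rb*) lower in TAM short than in control. In TAM long 3 were higher and 3 lower, in DMBA 3 and 4, and in DMBA+TAM 5 and 4, and *Il10rb* and *Il17rc*, subunits of the IL-22 and IL-17 receptors, were among the lower genes of all 3.

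Of 12 signalling genes and transcription factors, 3 were higher and 1 was lower in TAM short than in control. *Socs3*, a feedback inhibitor that STAT3 induces, had 88.4 ± 4.12 normalized CPM in TAM short and 38.1 ± 3.10 in control, a log2FC of 1.22 (adjusted p = 0.00922). *Nfkbiz*, an inducible regulator of NF-kappaB, had 131.9 ± 3.24 and 62.3 ± 8.79, a log2FC of 1.08 (adjusted p = 0.00451), and *Gata4* fell by 2.51 (adjusted p = 0.0175). The other higher gene was *Stat3* itself. In TAM long, where *Reg3b* and *Reg3g* were below control, *Nfkbiz* was also higher than in control, at 141.9 ± 13.3 (1.19, adjusted p = 0.000663). TAM long against control had 2 of the 12 genes higher and 5 lower, and library size scaling called 2 in each direction. In DMBA *Socs3* was lower than in control, at 9.44 ± 0.752 (-2.01, adjusted p = 0.000218), while in DMBA+TAM it was highest, at 144.1 ± 4.13 (1.92, adjusted p = 8.01e-05). In TAM long against TAM short, where 42.2% of all genes were called, 0 of the 12 genes were higher and 7 lower, *Stat3*, *Socs3* and *Myd88* among them.

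Of 9 cytokines that act on Reg genes, 7 were in the table and 3 passed the filter on low counts. Of these, 1 (*Ifng*) was higher and 0 were lower in TAM short than in control, and in DMBA+TAM 1 (*Il6*) was higher and 1 (*Il18*) lower. *Ifng* had at most 3 counts outside TAM short, and *Il6* at most 1 outside DMBA+TAM. Each passed the filter only through the group where it was called higher, which fixed the direction of its call. *Il18*, which epithelial cells make, had 71.3 ± 6.39 normalized CPM in control, 44.8 ± 0.796 in TAM short and 9.05 ± 0.880 in DMBA+TAM.

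Of 14 other genes that IL-22 induces in gut epithelium, 13 were tested, and 5 were higher and 0 lower in TAM short than in control, with a median log2FC of 1.69 (0.79 with genes at 3 counts or fewer at their bound). *Saa1*, an acute phase protein, had 208.2 ± 82.4 normalized CPM in TAM short against 1.11 ± 0.033 in control (7.54, adjusted p = 2.8e-05), and *Nos2*, the inducible nitric oxide synthase, 471 ± 59.5 against 30.5 ± 6.21 (3.95, adjusted p = 0.000244). *Duoxa2*, a maturation factor of an epithelial oxidase, and *Fut2*, a fucosyltransferase, also rose, with log2FC values of 3.92 (adjusted p = 0.000528) and 3.60 (adjusted p = 0.000119), and the fifth gene was *Duox2*. In TAM long against control 8 of the 13 were higher and 0 lower (median 2.64, or 2.08 with bounds), and in DMBA 6 were higher and 1 lower (median 1.74, or 1.38 with bounds). *Saa1* reached 966.1 ± 94.2 normalized CPM in TAM long and 408.6 ± 210 in DMBA, and *Fut2* 216.8 ± 18.3 and 276.2 ± 6.18 against 2.69 ± 1.94 in control, where *Reg3b* and *Reg3g* were lower. *Nos2* alone was lower in DMBA than in control (-1.82, adjusted p = 0.00468). *Saa1* is also among the colon markers used here. In DMBA+TAM 7 of the 13 genes were higher and 4 lower than in control, the higher ones including *S100a8* and *S100a9*, which are also neutrophil markers. *Saa2*, *S100a8* and *S100a9* had at most 9 counts in any library outside DMBA+TAM. They passed the filter only through that group, which fixed the direction of any call there. *Muc1*, with at most 3 counts outside DMBA and TAM long, passed only through those groups, so its direction there was fixed too.

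**Figure D5:**
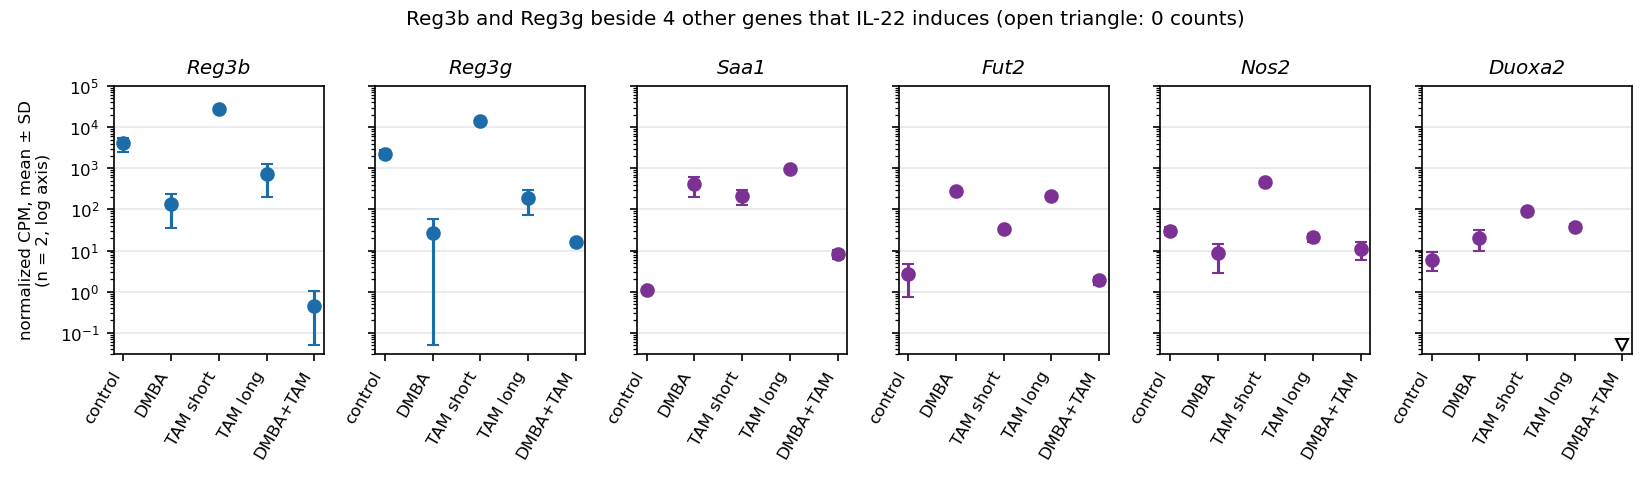
Group means ± SD (n = 2) of normalized CPM (log axis) for *Reg3b* and *Reg3g* beside *Saa1*, *Fut2*, *Nos2* and *Duoxa2*, 4 other genes that IL-22 induces. Bars that would pass below 0 end at the bottom, and the open triangle marks 0 counts. All 6 genes were higher in TAM short than in control, while in DMBA and TAM long *Saa1* and *Fut2* were higher and *Reg3b* and *Reg3g* lower than in control.

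Of 16 other antimicrobial and lectin genes in the table, 3 were higher and 1 (*Clec2h*) was lower in TAM short than in control (median log2 fold change -0.36). *Retnlb*, a goblet cell antimicrobial protein, had 1251 ± 43.8 normalized CPM in TAM short against 152.3 ± 26.9 in control (3.04, adjusted p = 0.000388), and *Pglyrp1*, a peptidoglycan recognition protein, 217.1 ± 12.2 against 105.6 ± 3.27 (1.04, adjusted p = 0.000959). The other higher gene, *Lyz2*, and the 1 gene of the list that was higher in DMBA+TAM are the same, a lysozyme of macrophages that is also among the immune markers. In DMBA+TAM 14 of the 16 were lower than in control and 1 was higher. In DMBA 7 were higher and 6 lower than in control, and in TAM long 5 were higher and 7 lower. Of the 15 secretory and enteroendocrine genes, 9 were higher and 2 lower in DMBA and 8 higher and 1 lower in TAM long than in control, while *Reg4* itself was lower in TAM long. In DMBA+TAM 0 of the 15 were higher and 12 lower than in control (median log2FC -5.22, or -3.53 with bounds), as *Reg4* was. *Muc2*, the main goblet cell mucin, had 11026 ± 2061 normalized CPM in TAM long and 13383 ± 406 in DMBA against 1240 ± 185 in control (log2 fold changes 3.15, adjusted p = 5.76e-06, and 3.43, adjusted p = 3.75e-06).

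Over the 10 libraries, the genes most like *Reg3b* by Pearson's r of log2(normalized CPM + 1) were *Slc34a2*, a phosphate transporter (r = 0.99), *Gpr160*, an orphan receptor, and *Nlrc4*, an inflammasome component (r = 0.99 for both). *Slc34a2* had 847.6 ± 35.5 normalized CPM in TAM short, 137 ± 28.7 in control, 75.7 ± 6.25 in TAM long, 17.9 ± 0.283 in DMBA and 0 counts in DMBA+TAM, the order of *Reg3b*. For *Reg3g* they were *Nr3c1*, the glucocorticoid receptor, *Pdlim2* and *Malrd1* (r = 0.98 for each), for *Reg3a* *Slc28a3*, a nucleoside transporter, *Aars* and *Smc4* (r from 0.97 to 0.98), and for *Reg4* *Clps*, the pancreatic colipase, *Camk1d* and *D10Wsu102e* (r from 0.96 to 0.97). *Clps* is one of the exocrine pancreas markers and had 649 and 3784 counts in the DMBA libraries. Its likeness to *Reg4* did not rest on DMBA replicate 2 alone, as r was 0.9505 without that library. Mean *Clps* was 60.74 normalized CPM in control, 27.8 in TAM short and 9.801 in TAM long, the order of *Reg4* in these groups. For *Reg1* they were *Mfsd11* (r = 0.92), whose group means spanned only 28.9 to 36.1 normalized CPM, ENSMUSG00000071637, which has no symbol in the table (r = 0.84), and *1600012H06Rik* (r = 0.80). Between members, r was 0.89 for *Reg3b* and *Reg3g*, 0.54 for *Reg3b* and *Reg4* and -0.27 for *Reg3b* and *Reg1*. Without DMBA replicate 2 these were 0.93, 0.90 and -0.21. The points share library depth and tissue makeup, and 2 of the 10 hold almost no epithelial RNA.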

How the data were processed

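Poly-A RNA of 10 libraries was sequenced. Per the study's methods and the submitters' processing notes, the authors aligned reads with TopHat v2.0.12 and counted them per gene with HTSeq v0.6.1. The deposited table gives raw counts and FPKM, which the authors scaled by transcript length and library total. Of 47074 table lines, 5 were split lines without counts, which left 47069 genes, 26392 of them with a count. For 53.02% of these 26392 genes the length implied by FPKM differed by over 1 bp from the listed one. Read length and strand setting are not given in the sources used here.

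The quasi-likelihood F test of edgeR 4.0.16 (R 4.3.3) was run on the counts (filterByExpr, TMM factors from 0.832 to 1.19) in 1 model with a mean for each of 5 groups. P-values were adjusted by Benjamini-Hochberg over the 16179 genes kept and called under 0.05. Normalized CPM are CPM on the TMM-scaled total. Alternatives were library size scaling, no filter, only the groups compared, a replicate block, a test against an absolute log2 fold change of 1 (glmTreat), limma 3.58.1 on log2(FPKM + 1) and log2(FPKM + 0.1), thinning to 1592366 counts, DESeq2 1.42.0, and leaving out each library. The scripts were tested on simulated data. Promoter windows came from RefSeq (GRCm38.p6), where all 5 genes matched by symbol, and transcripts from the GENCODE annotation. Tables and figures were made in Python 3.11.15 with pandas 2.3.3 and matplotlib 3.10.9.

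The members and the gene and marker lists were chosen with earlier results of these data known. Besides the 5 members, genes of the lists were named where the adjusted p was under 0.05 and the absolute log2 fold change at least 1, at most 4 per list and comparison, the largest changes first, if averaging 5 normalized CPM or more. *Reg2*, *Reg3d* and *Extl3* were always named, as were the 3 genes with the highest r to each member, if averaging 10 normalized CPM or more, and defining markers. Other list genes were named from their counts of calls, after their values were seen. Marker lists were epithelium, exocrine pancreas, small intestine, colon, fibroblast, smooth muscle, immune, neutrophil and endothelium.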

Additional observations from a re-analysis of the deposited data

Results flagged for a closer look

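For *Reg3b* and *Reg4*, the change with DMBA differed between organoids with and without tamoxifen in the test of the difference itself (quasi-likelihood test of edgeR, Benjamini-Hochberg method). On the log2 scale, the difference between DMBA+TAM and TAM long minus that between DMBA and control was -5.667 for *Reg3b* (standard error 1.501, adjusted p = 0.0111) and -7.585 for *Reg4* (standard error 2.78, adjusted p = 0.0463), where 48.2% of all genes were called. Both rest on DMBA+TAM libraries with at most 2 counts of either gene, and the *Reg4* value also on DMBA libraries with 451 and 33582 counts. Without DMBA replicate 2, *Reg4* in DMBA against control turned from 3.13 to -2.45 on the log2 scale. The size of the *Reg4* difference thus rests on that library. The *Reg3b* call was kept in 9 of 9 other fits and lost without DMBA+TAM replicate 1. The *Reg4* call was kept in 4 of 9 other fits and with 2 of 8 libraries left out in turn, and was lost with the replicate block, with limma and with only the groups compared among others. DMBA and TAM long are labelled Long and control is not, so this difference also runs across that label. The 8 epithelial markers had 3 members over 3 counts in each DMBA+TAM library, and their part in these values was not tested.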

How the results depend on the processing

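Of 60 pairs of a Reg gene and a comparison, 32 were called. Of these, 16 kept their call under every alternative run and 2 changed sign under any, *Reg1* and *Reg4* in TAM short against DMBA, a comparison chosen after seeing the data. The share of all genes called also moved with the fit and with the library left out. A change in the counts below need therefore not be one of the Reg genes alone. Counts of called members per comparison ranged, with 1 library left out at a time, from 2 to 5 in DMBA against control, 0 to 0 in TAM short against control, 1 to 3 in TAM long against control, 0 to 5 in TAM long against DMBA, 3 to 3 in TAM long against TAM short, 2 to 5 in TAM short against DMBA, 3 to 4 in DMBA+TAM against control, 2 to 5 against DMBA, 1 to 2 against TAM long and 2 to 3 against TAM short, 0 to 4 in the tamoxifen test by title letter and 0 to 5 in the DMBA test by tamoxifen.

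Without the filter on low counts, 5 members were called in DMBA against control, TAM long against DMBA, TAM long against TAM short and DMBA+TAM against DMBA, 4 in TAM short against control, DMBA+TAM against TAM long and the DMBA test by tamoxifen, and 3 in the tamoxifen test by title letter. These calls carry little weight, since that edgeR fit gave *Reg1* in DMBA against control an adjusted p of 7.78e-16 with DMBA counts of 4 and 1555. With only the groups compared, 5 were called in TAM short against control and TAM long against TAM short, 4 in DMBA+TAM against TAM long, 2 in TAM short against DMBA, 0 in TAM long against DMBA and 1 in the DMBA test by tamoxifen. Tested against an absolute log2 fold change of 1, 0 were called in TAM short against control and TAM long against DMBA, 2 in TAM long against control and TAM short against DMBA and 1 in the DMBA test by tamoxifen. With limma on log2(FPKM + 1), 1 was called in TAM short against control, 3 in TAM short against DMBA and 0 in TAM long against DMBA, and on log2(FPKM + 0.1) 0 in TAM short against control and TAM long against DMBA, 2 in TAM long against control and TAM short against DMBA and 1 in the DMBA test by tamoxifen. In TAM long against DMBA, library size scaling called 0 and DESeq2 3, and DESeq2 called 4 in DMBA+TAM against TAM long. Of all genes tested, 14.3% were called in TAM short against control in the main fit. That share was 12.5% without the filter, 31% with only the groups compared and 2.07% when tested against 1. In TAM long against DMBA it was 2.7% in the main fit, and 6.12%, 0.196% and 0.179% in these 3 fits.

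With the replicate block, 2 members were called in TAM long against DMBA, *Reg3b* and *Reg3g* higher, and *Reg4* was not. Deviations of same-numbered libraries correlated at -0.107 to 0.426 over 10 pairs of groups. The highest value was that of DMBA and TAM long, the comparison in which the block changed these calls, and the next was 0.0683. As only that pair stood out, the numbers were not taken to pair libraries. In the DMBA test by tamoxifen the block lost *Reg4* and called *Reg3g* higher (3.26, adjusted p = 0.0208), and in TAM short against DMBA it lost *Reg1* (adjusted p = 0.0715). It changed no other call.

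Of 30 values whose sign turned, 5 were called: without DMBA replicate 2, *Reg1* and *Reg4* in DMBA against control, *Reg1* in DMBA+TAM against DMBA and *Reg4* in TAM short against DMBA, and without DMBA replicate 1, *Reg3g* in DMBA+TAM against DMBA. In TAM short against DMBA, values ran from -5.68 to 3.18 for *Reg1* and -5.475 to 1.06 for *Reg4*, both highest without DMBA replicate 2. With other fits, on the log2 scale, *Reg1* in DMBA against control was -0.42 with limma on log2(FPKM + 1) and -1.02 on log2(FPKM + 0.1). In DMBA+TAM against DMBA these gave 0.31 and 0.91 for *Reg1* and 0.12 and 0.21 for *Reg3g*. In the tamoxifen test by title letter *Reg3g* was -0.0844 with library size scaling and -0.0244 thinned. With 1 library left out at a time, values in DMBA against control ran from -6.21 (without DMBA replicate 2) to 3.05 for *Reg1* and from -2.45 (without DMBA replicate 2) to 4.09 for *Reg4*. In TAM long against DMBA they ran from -7.73 to 1.17 for *Reg1* and -9.40 to 2.64 for *Reg3a*, both highest without DMBA replicate 2. In DMBA+TAM they ran against control from -1.65 to 0.45 for *Reg1* (highest without control replicate 2), against DMBA from -3.59 to 5.27 for *Reg1*, -9.58 to 2.22 for *Reg3a* (both highest without DMBA replicate 2) and -1.65 to 1.70 for *Reg3g* (highest without DMBA replicate 1), and against TAM long from -5.49 to 4.90 for *Reg3a* (highest without TAM long replicate 1). In the tamoxifen test by title letter they ran from -5.06 to 4.20 for *Reg1*, -9.02 to 3.02 for *Reg3a*, -1.40 to 0.71 for *Reg3b*, -0.79 to 2.55 for *Reg3g* and -6.47 to 0.0754 for *Reg4*, and in the DMBA test by tamoxifen from -2.02 to 9.76 for *Reg3a*. For *Reg3a* in DMBA+TAM, 2.22 against DMBA and 4.90 against TAM long rest on 2 counts or fewer in each library compared, so their signs cannot be read. The cause of the changes of sign was not tested. At the totals of DMBA+TAM, levels under 1.32 and 1.58 normalized CPM could not be told from 0.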
